A study of Culex quinquefasciatus with 12 samples.

Results

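The response of the larval midgut of Culex quinquefasciatus, the southern house mosquito, to 18 h of the mosquitocidal binary (Bin) toxin was measured on 4 of the 12 arrays of the study. These 4 are the arrays that set midgut RNA of Bin-treated larvae against midgut RNA of untreated larvae at 18 h, and the other 8 hold the same comparison at 6 h and at 12 h, on 4 arrays each. All larvae were of the JHB strain, in the third larval instar, and had been starved for 3 h. The Bin-treated group was then fed BinA and BinB in equal molar amounts at 80 ng/ml, the LC90, and the untreated group received no toxin. Each Bin-treated replicate was a batch of 20 larvae, and RNA came from pools of at least 20 midguts. Larvae still alive at the end of the exposure were the ones dissected, so the data describe larvae that had survived until then. How many had died by 18 h is not given in the sources used here. Fewer cells of a type in the pool and less RNA per cell of that type cannot be told apart in such pooled tissue.

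Bin toxin is made by the bacterium Lysinibacillus sphaericus. BinB binds a receptor on the brush border of the midgut, a membrane-anchored alpha-glucosidase, and BinA, which enters the cell with it, carries the toxic activity. The larval midgut is an epithelium that secretes proteases and carbohydrases, takes up their products, detoxifies plant and synthetic compounds, and renews itself from regenerative cells. Storage proteins such as hexamerins, in contrast, are classical products of the fat body, the tissue that surrounds the gut.

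On each array the Bin-treated RNA carried the red dye (Cy5) and the untreated RNA the green dye (Cy3), and the measurement was the log2 ratio of red over green, so that 1 stands for a doubling in Bin-treated midguts. A total of 19751 genes were measured with 42990 probes. A gene was called up-regulated or down-regulated where limma's adjusted p was under 0.05 over all genes and the mean log2 ratio was at least 0.75 from 0, a 1.68-fold change. Errors written with ± are standard errors of that fit (n = 4 arrays at 18 h). At 18 h, 15072 genes (76.3%) lay well above background in both channels on all 4 arrays, and 70 genes were saturated in both channels on all 4. The SD of the log2 ratios over genes was 0.377 to 0.418 on the 4 arrays, and the arrays correlated across genes with r of 0.60 to 0.72, a description in which genes are not independent replicates. The third array of 18 h correlated slightly better with the third array of 12 h (0.72) than with any of its own group (at most 0.70). Dyes were never swapped, so a gene that takes up one dye better shows the same offset at every time point. Each time point had its own slide, and an effect of the slide cannot be told apart from one of time.

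The untreated channel varied far less among the 4 arrays than the Bin-treated channel did. Over the 15072 genes well above background, the median SD among arrays was 0.0501 on the log2 scale in the untreated channel and 0.138 in the Bin-treated channel at 18 h, and the untreated SD was the smaller one for 87.4% of genes. The lowest correlation across genes between any pair of arrays at 18 h was 0.998 for the untreated channels and 0.984 for the Bin-treated channels. Whether each array carried a separate pool of untreated midguts is not given in the sources used here. If one pool was labelled for all 4 arrays, the p-values below leave out the spread between untreated pools. A difference between time points can likewise come from either channel.

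Markers of the midgut were bright in both groups. The 13 alpha-glucosidases, maltases and alpha-amylases were all well above background in both channels on all 4 arrays and held 1.198 to 1.35% of the summed signal of untreated midguts and 0.857 to 0.997% of that of Bin-treated midguts. Since 4 of the 13 were saturated in both channels on all 4 arrays and 7 had a saturated probe, this difference is not readable as a change. The 32 trypsins and chymotrypsins held 1.026 to 1.097% and 0.558 to 0.855%. Markers of tissues that can cling to a dissected gut were detected too. The 11 storage proteins of the fat body held 0.402 to 0.514% of the untreated signal and 0.135 to 0.445% of the Bin-treated signal, the 24 cuticle proteins 0.0168 to 0.0195% and 0.0161 to 0.0524%, the 8 muscle proteins 0.0324 to 0.0385% and 0.0347 to 0.0478%, and the 10 salivary proteins 0.0638 to 0.0753% and 0.0902 to 0.146%. The 12 other genes of fat body and haemolymph held 0.0741 to 0.0913% and 0.0647 to 0.0969%. The salivary ranges did not overlap between the groups, and the muscle, cuticle and fat body ranges did. Of the 10 salivary proteins, 1 was up-regulated, the salivary C-type lectin (CPIJ004339), with a mean of 2.17. Another 1 was down-regulated, salivary secreted angiopoietin (CPIJ017657), with a mean of -0.88, and the list median was 0.18. The part of single genes in the salivary sum was not tested. All 8 muscle and all 11 storage proteins were well above background on every 18 h array.

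**Figure D1:**
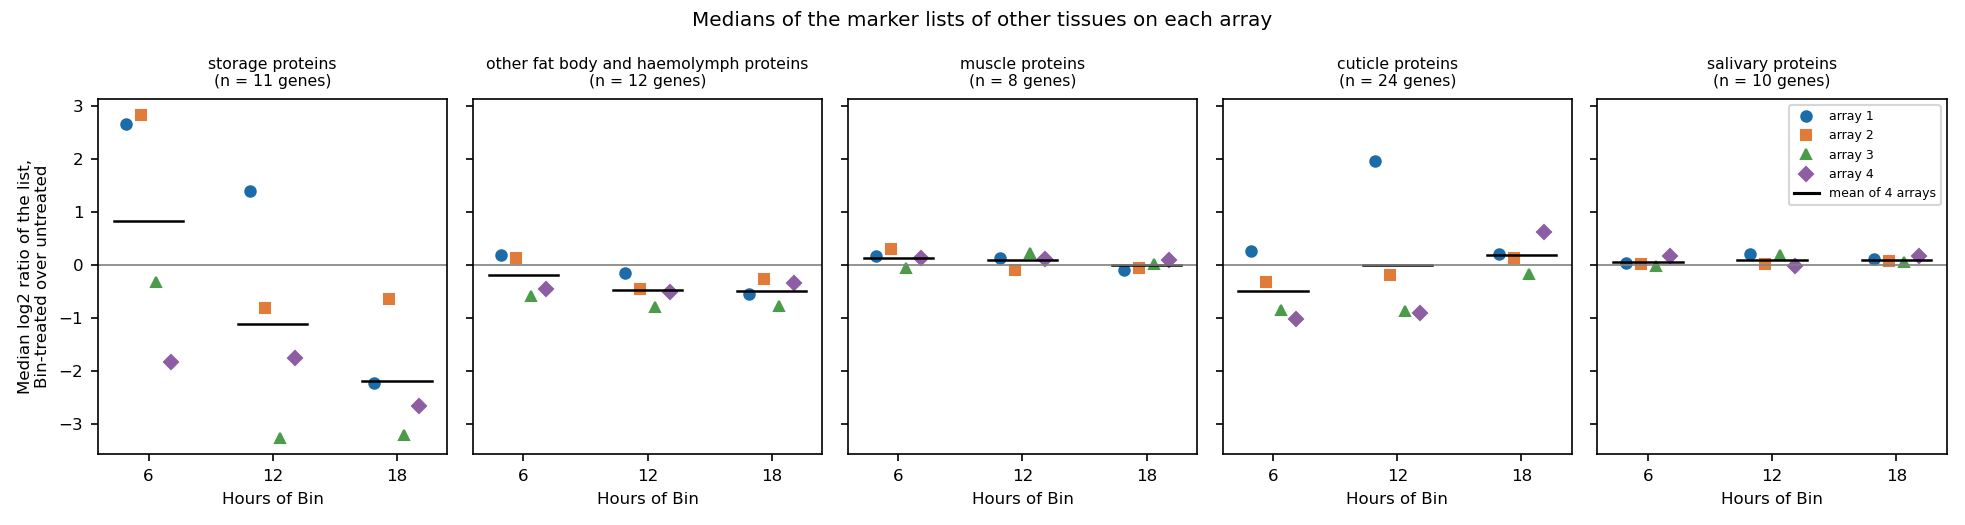
Median log2 ratio of Bin-treated over untreated midgut (vertical axis) for 5 marker lists of tissues other than midgut epithelium, on each array (points, shape by array number) at 6, 12 and 18 h of Bin (horizontal axis); horizontal bars are means of 4 arrays. Storage proteins spread from -3.21 to -0.65 on the 18 h arrays and reached 2.82 at 6 h, whereas muscle and salivary lists stayed close to 0. Cuticle proteins also spread widely, from -1.03 on array 4 of 6 h to 1.95 on array 1 of 12 h.

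At 18 h of Bin, 831 transcripts differed between Bin-treated and untreated midguts (4.21% of all genes tested). Of these, 478 were up-regulated (2.42%) and 353 down-regulated (1.79%), so 42.5% of the changed transcripts were lower in Bin-treated midguts. When the dyes were balanced by centring each array on its median in place of the intensity-dependent loess curve, 1551 were higher and 171 lower (9.93% lower), so the split between rises and falls rests on how the dyes were balanced. With loess, falls went further than rises: 32 down-regulated genes but 11 up-regulated genes changed at least 4-fold, and 214 and 204 changed at least 2-fold. These counts by size were not made with median centring. All 4 arrays lay on one side of 0 for 475 of the up-regulated and 343 of the down-regulated genes, compared with 46.3% of all genes. For every one of the 831, all probes of the gene had means of one sign. The calls were made on these same arrays and probes, so agreement in sign is largely built into the selection. It is not separate support for the calls. Without regard to size, 5790 genes passed the adjusted p. Setting aside the fourth array of 18 h gave 451 up-regulated and 459 down-regulated genes, and setting aside the third gave 536 and 335.

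Names were taken from the study's annotation, which covers 2556 of the genes with a description. The study annotated genes it had called at one or more time points, so the gene groups below were drawn from genes selected on these same samples and are not independent evidence of direction. Of the 2556 described genes, 193 were up-regulated (7.55%) and 238 down-regulated (9.31%) at 18 h, with a median log2 ratio of -0.06 against 0.01 for all genes, and each group below is to be read against these figures.

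**Figure D2:**
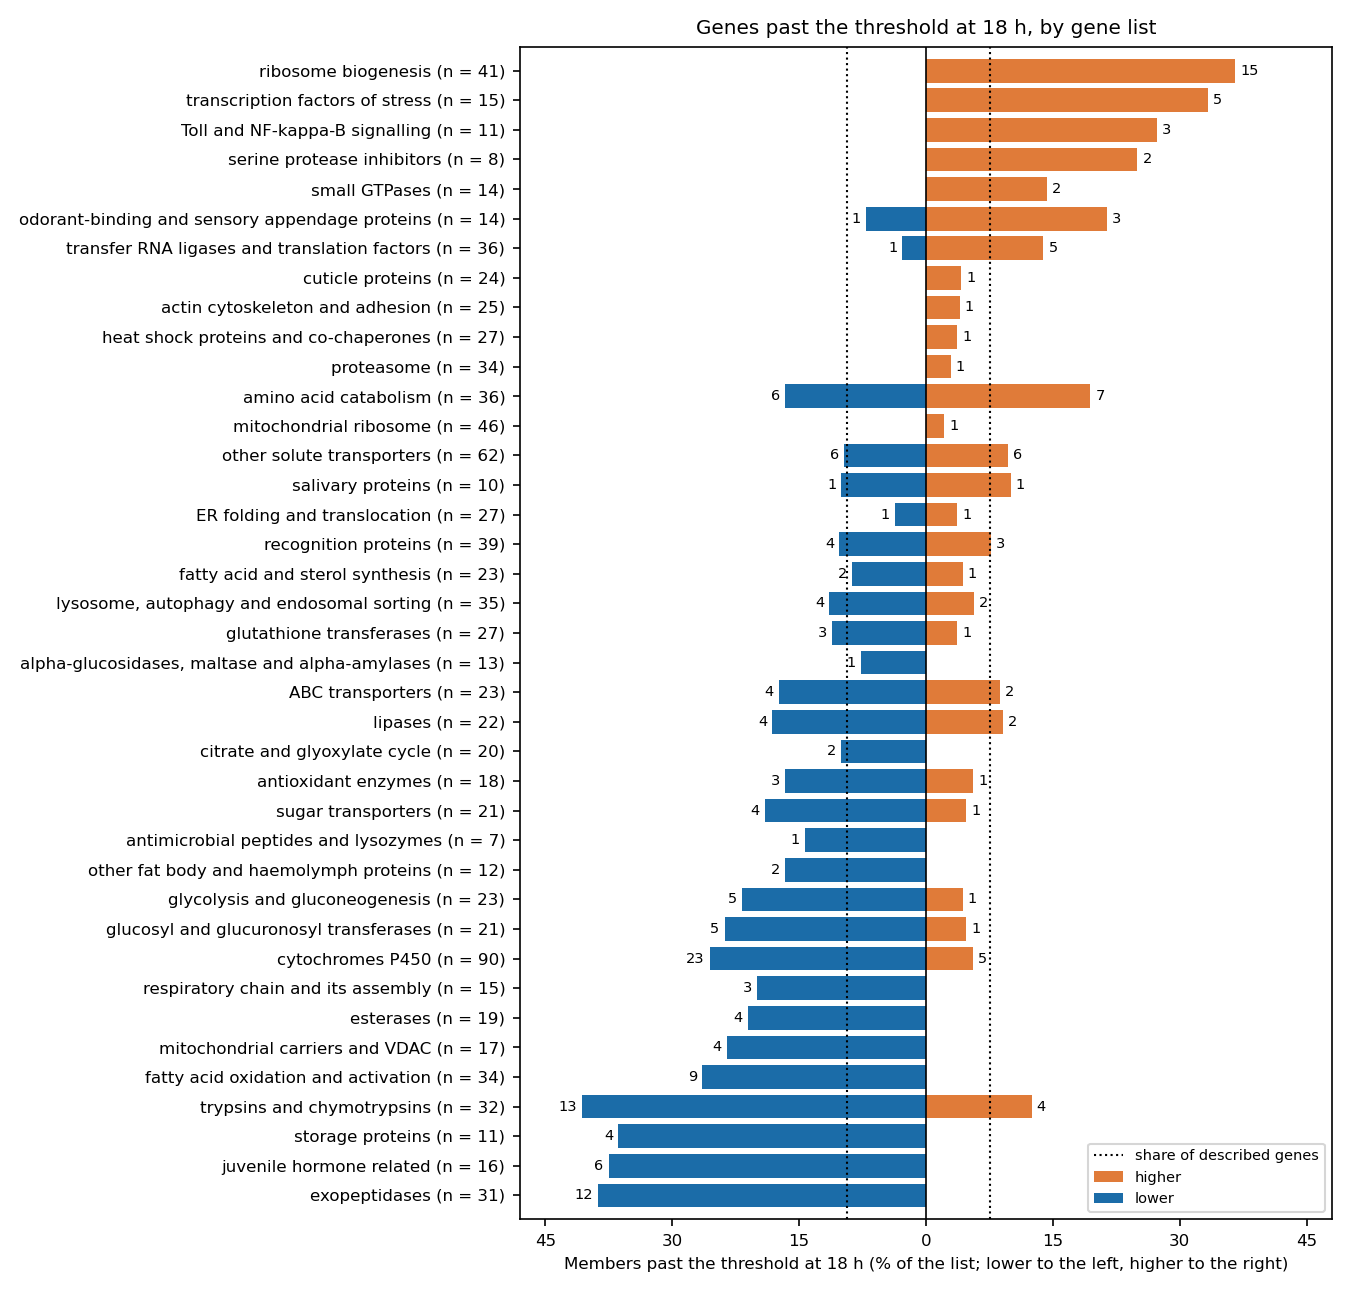
Share of the members of each gene list (% of the list, horizontal axis) past the threshold at 18 h, up-regulated to the right in orange and down-regulated to the left in blue, with the number of genes beside each bar; lists with no member past the threshold are not drawn. Dotted lines mark the shares of the 2556 described genes from which the lists were drawn, 7.55% higher and 9.31% lower; ribosome biogenesis had 15 of 41 members higher and exopeptidases 12 of 31 lower.

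Among described genes, the 15 largest rises at 18 h joined enzymes of amino acid, sugar and lipid handling with nucleolar and secreted proteins. SERAC1 (CPIJ003381), whose human counterpart remodels phospholipids where mitochondria touch the endoplasmic reticulum, had log2 ratios of 2.28, 2.24, 2.43 and 3.02 on the 4 arrays, a 5.63-fold rise (2.49 ± 0.22, adjusted p = 1.37e-05). Phenylalanine-4-hydroxylase (CPIJ002148), which turns phenylalanine into tyrosine, measured 1.33, 2.42, 2.58 and 3.18, a 5.2-fold rise (adjusted p = 0.00151). The arrays lay well clear of 0 for both genes, although array 1 was lowest and array 4 highest for the hydroxylase. A UDP-glucuronosyltransferase (CPIJ008571), of the enzymes that attach sugars to lipophilic compounds, rose 5.01-fold with values of 1.90 to 2.95, and an inosine-uridine preferring nucleoside hydrolase (CPIJ008181), which frees bases from nucleosides, rose 4.81-fold with values of 1.48 to 3.20.

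The remaining large rises spanned glycosylation, protein folding, the nucleolus and transport. The genes CPIJ005231 and CPIJ013573, both named N-acetyl galactosaminyl transferase 6 after the enzymes that begin mucin-type O-glycosylation, had ratios of 1.90 to 2.14 and 1.73 to 1.97, and cross-hybridisation between genes of one name was not tested. Heat shock protein 26 (CPIJ005640), a small chaperone, measured 2.10, 1.76, 1.53 and 2.26 (1.91 ± 0.40, adjusted p = 0.0044). The nucleolar antigen p120 (CPIJ010674), which in yeast and human methylates ribosomal RNA, measured 1.99, 1.82, 1.65 and 1.57 and a gene annotated as 60S ribosomal protein L7 (CPIJ012743) 1.81, 1.84, 1.67 and 1.5. A sodium/chloride dependent amino acid transporter (CPIJ003267) ranged from 1.46 to 2.14 and the transporter-like synaptic vesicle glycoprotein 2B (CPIJ009611) from 1.21 to 2.10. No array was below 1.2 for these 7 genes. Serine collagenase 1 (CPIJ003994), a secreted protease, was more uneven, with 0.88 on array 3 and 2.58 on array 4.

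A further 3 of the 15 rises were carried unequally by the arrays. The cysteine-rich venom protein (CPIJ000210), named for a family of secreted proteins first known from venoms, measured 1.17, 1.29, 2.58 and 3.74. The salivary C-type lectin (CPIJ004339), a carbohydrate-binding protein, measured 2.87, 2.35, 1.74 and 1.73, and lost its call when array 1 (adjusted p = 0.071) or array 2 (adjusted p = 0.057) was set aside. The endocuticle structural glycoprotein SgAbd-4 (CPIJ009326), a structural protein of cuticle, measured 1.28, 0.52, 0.96 and 4.09. Array 4 stood far above the others for this cuticle protein, and without it the mean was 0.92 with an adjusted p of 0.061. Cuticle lines the foregut and hindgut and the body wall, and the summed cuticle signal of the Bin-treated channel ranged from 0.0161 to 0.0524% while that of the untreated channel stayed below 0.02%. The part of other tissues in these rises was not tested.

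**Figure D3:**
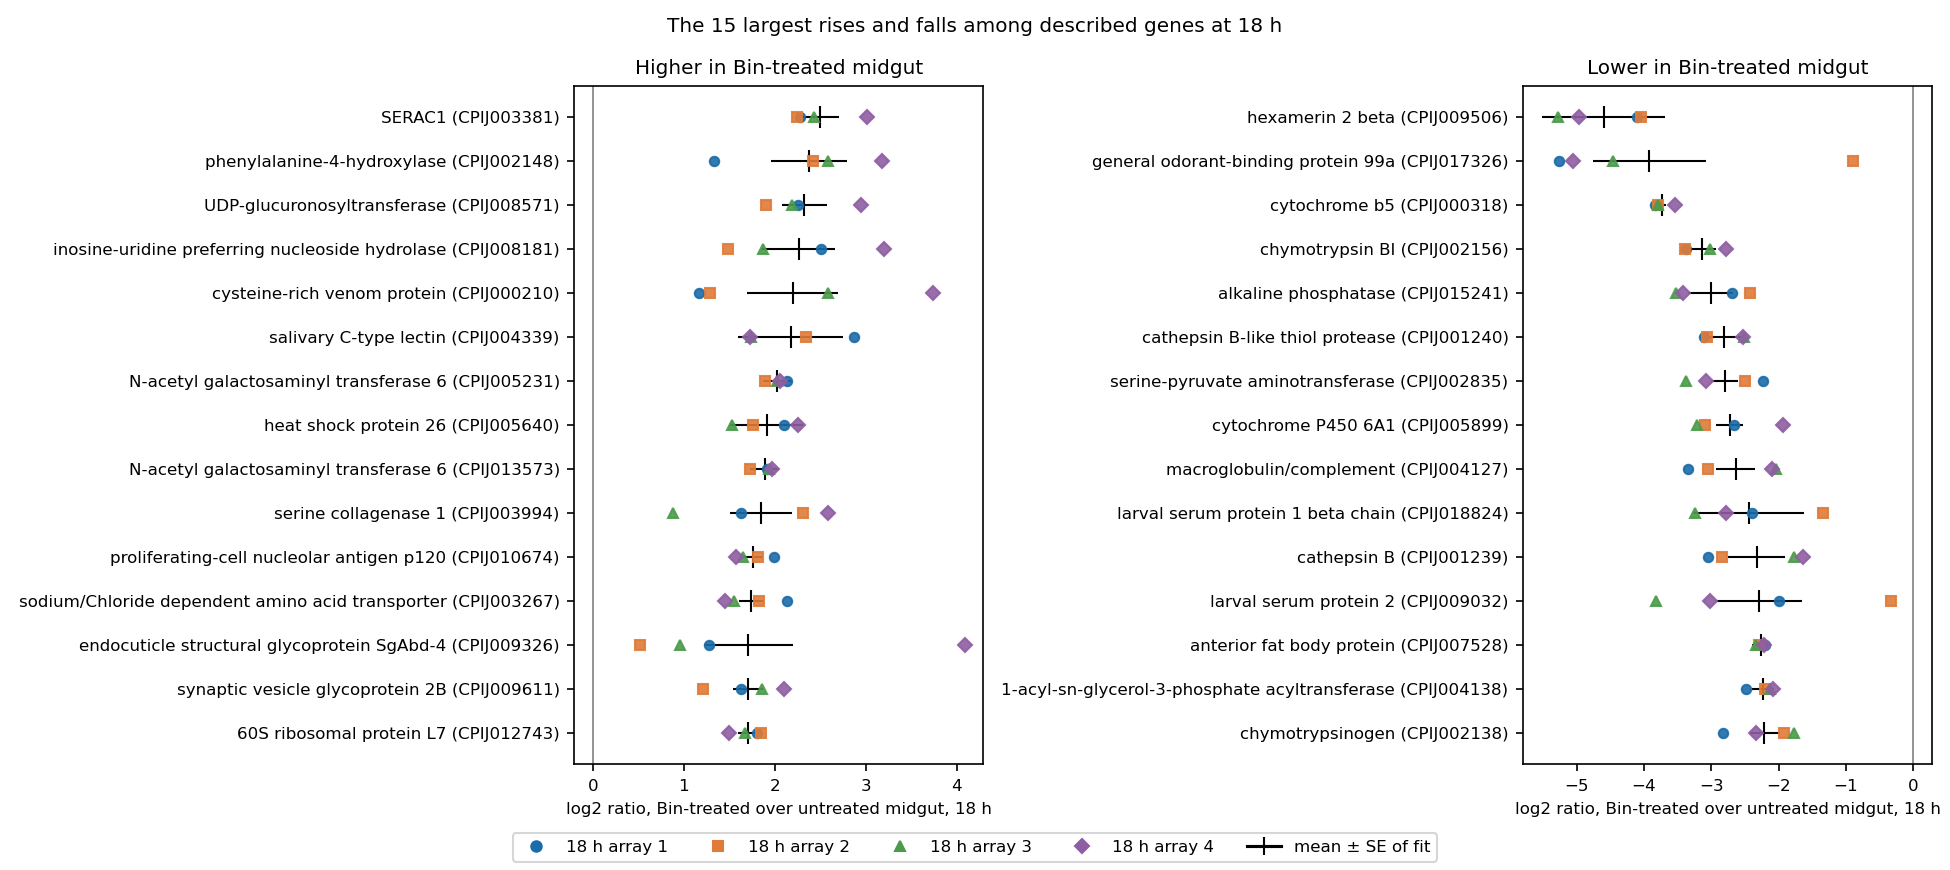
Log2 ratio of Bin-treated over untreated midgut at 18 h (horizontal axes) for the 15 largest rises (left) and the 15 largest falls (right) past the threshold among described genes; points are the 4 arrays and black bars the mean ± SE of the fit. Arrays agree closely for cytochrome b5 and anterior fat body protein, array 4 stands apart for SgAbd-4 at 4.09, and array 2 stands apart for odorant-binding protein 99a at -0.90.

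Among the largest falls, hexamerin 2 beta (CPIJ009506), an amino acid storage protein of insect haemolymph, measured -4.11, -4.04, -5.28 and -4.97, a 24.2-fold fall (-4.60 ± 0.92, adjusted p = 0.00312). General odorant-binding protein 99a (CPIJ017326), of a family of small carriers of hydrophobic ligands, measured -5.26, -0.90, -4.47 and -5.05 (-3.92 ± 0.83, adjusted p = 0.00453). Array 2 stood apart for the odorant-binding protein and not for the hexamerin. Cytochrome b5 (CPIJ000318), which passes electrons to cytochromes P450 and to fatty acid desaturases, had -3.83, -3.79, -3.79 and -3.53, a 13.3-fold fall (-3.74 ± 0.06, adjusted p = 9.04e-11).

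Alkaline phosphatase (CPIJ015241), an enzyme of the midgut brush border in many insects, fell 8.07-fold, with values of -2.69, -2.43, -3.52 and -3.42 (adjusted p = 7.35e-05). The cathepsin B-like thiol protease (CPIJ001240) and cathepsin B (CPIJ001239), cysteine proteases of lysosomes and of some insect guts, ranged from -3.11 to -2.52 and from -3.05 to -1.64. All 4 arrays were below -1.6 for these 3 genes. Another cathepsin B (CPIJ000577) was well above background in the untreated channel on all 4 arrays and in the Bin-treated channel on none, so its fall has only a bound, of at least 2.35-fold (adjusted p = 2.55e-08). This bound sets the mean untreated signal against the lowest signal counted as well above background on each array. No up-regulated gene was in the reverse position. The list of 35 genes of the lysosome, autophagy and endosomal sorting, which holds these 3 cathepsins, had 4 down-regulated and 2 up-regulated members and a median of 0.05. The 3 cathepsins were among the 4 that fell, and the other was a lysosomal pro-X carboxypeptidase (CPIJ008876, mean -0.81).

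Serine-pyruvate aminotransferase (CPIJ002835), which links amino acid breakdown to pyruvate, ranged from -3.38 to -2.24. The macroglobulin/complement gene (CPIJ004127), of the thioester proteins of haemolymph that bind microbes and proteases, measured -3.35, -3.05, -2.04 and -2.10. An anterior fat body protein (CPIJ007528), named for a fat body gene of the flesh fly, stood at -2.20, -2.29, -2.34 and -2.21, and a 1-acyl-sn-glycerol-3-phosphate acyltransferase (CPIJ004138), which makes phosphatidic acid for membrane and storage lipids, at -2.49, -2.21, -2.13 and -2.09. These genes lay below -2 on every array.

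Digestive endopeptidases fell more often than they rose. Of 32 trypsins and chymotrypsins, serine proteases that cut dietary protein, 13 were down-regulated and 4 up-regulated, with a median log2 ratio of -0.51 and array medians of -0.62, -0.89, -0.45 and -0.49. With median centring the count was 10 down-regulated and 4 up-regulated. Chymotrypsin BI (CPIJ002156) fell 8.84-fold, with -3.38, -3.39, -3.02 and -2.79 (-3.14 ± 0.22, adjusted p = 3.8e-06). Chymotrypsinogen (CPIJ002138) measured -2.82, -1.92, -1.77 and -2.33, and trypsin 5 (CPIJ013616) -2.23, -2.19, -2.23 and -2.01. Each of these 3 proteases was lower on every array by more than 1.7. Trypsin alpha-4 (CPIJ002135) was split, at -3.35 and -2.25 on arrays 1 and 2 and at -0.63 and -0.65 on arrays 3 and 4, and its call was lost without array 1 (adjusted p = 0.076) or array 2 (adjusted p = 0.066).

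The digestive serine proteases did not all move one way, and the 4 rises are named here after their values were seen. Trypsin CPIJ011302 had a mean of 1.19, anionic trypsin-2 (CPIJ016224) of 1.12, trypsin-1 (CPIJ012156) of 0.93 and trypsin 2 (CPIJ005271) of 0.77, and all 4 arrays were above 0 for each. The last of these shares its name with CPIJ019428, which fell to a mean of -1.53.

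Exopeptidases, which trim single amino acids from peptides, moved in one direction where they passed the test. Of 31 members, 12 were down-regulated and none up-regulated, with a median of -0.62, and under median centring 7 were down-regulated. Carboxypeptidase B (CPIJ010801) measured -2.26, -2.46, -2.09 and -1.94, a 4.56-fold fall (-2.19 ± 0.10, adjusted p = 2.38e-07). Carboxypeptidase A2 (CPIJ001743) measured -1.68, -1.75, -1.81 and -2.33. The zinc carboxypeptidases CPIJ001744 and CPIJ009394 had means of -1.64 and -1.61, the second with array 2 apart at -1.17. Aminopeptidase N genes, of brush border enzymes, were among the falls, CPIJ012036 to -1.26 and CPIJ004060 to -0.75. The summed signal of storage proteins had a lower median in the Bin-treated channel (0.182%) than in the untreated channel (0.492%), with overlapping ranges, and its part in these falls was not tested.

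**Figure D4:**
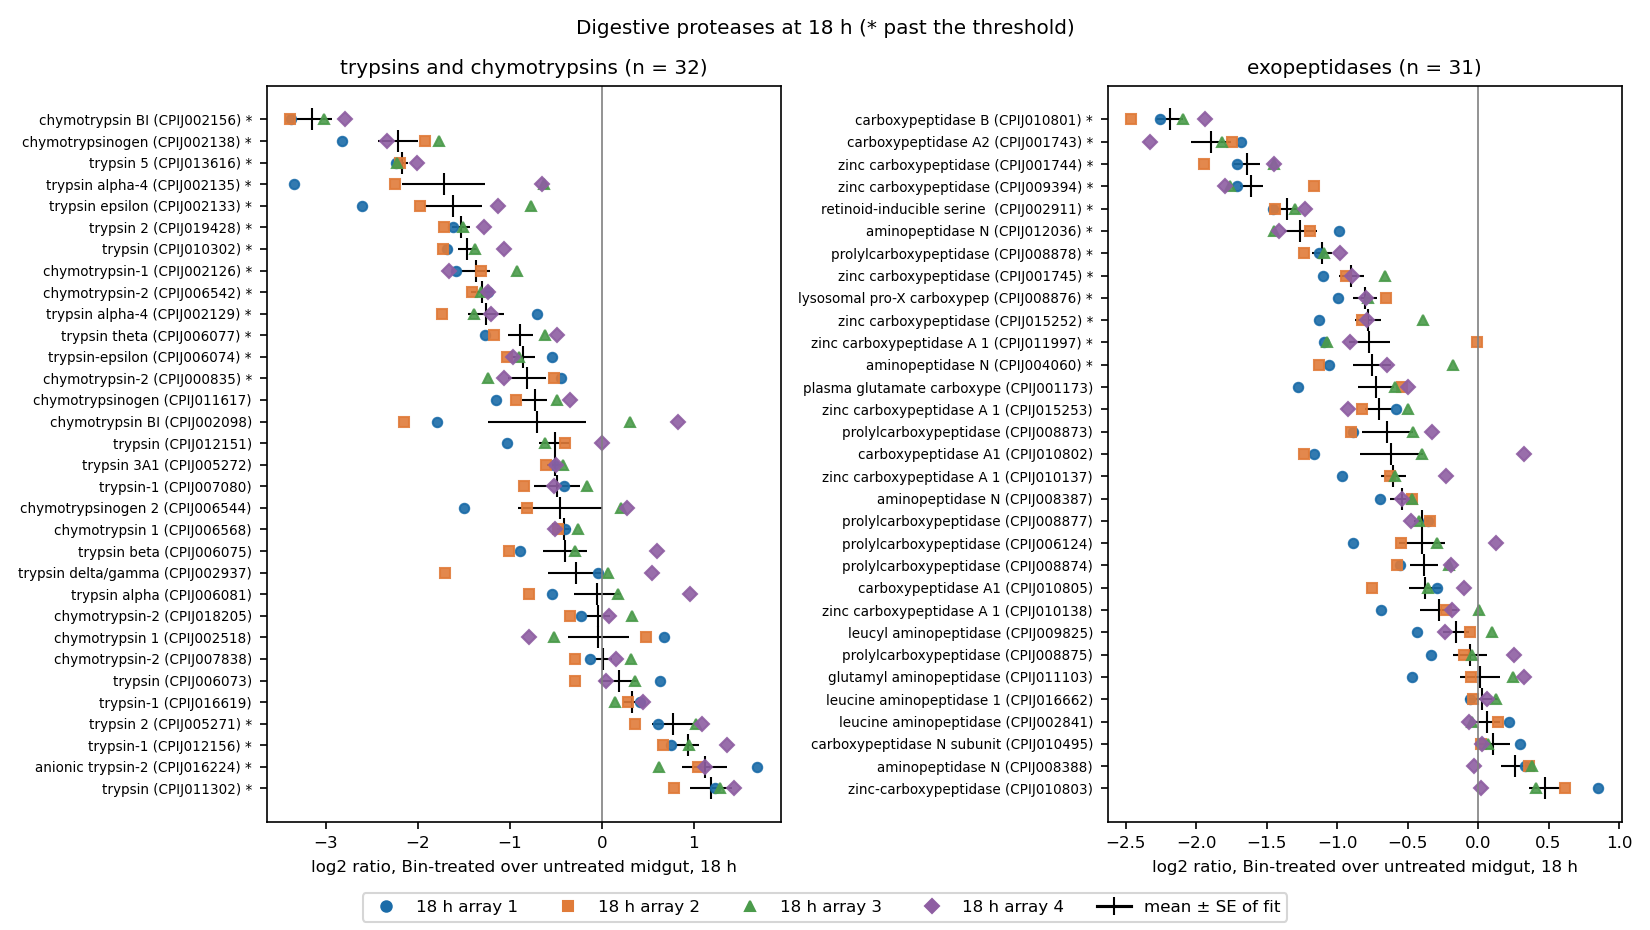
Log2 ratio of Bin-treated over untreated midgut at 18 h (horizontal axes) for 32 trypsins and chymotrypsins (left) and 31 exopeptidases (right); points are the 4 arrays, black bars the mean ± SE of the fit, and an asterisk marks genes past the threshold. The left panel holds 13 falls and 4 rises and the right panel 12 falls, led by chymotrypsin BI at -3.14 and carboxypeptidase B at -2.19.

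Among carbohydrases, 1 of the 13 alpha-glucosidases, maltases and alpha-amylases passed the threshold. This alpha-glucosidase (CPIJ008904) measured -2.29, -2.14, -1.01 and -1.17 (-1.65 ± 0.20, adjusted p = 0.00012), with arrays 1 and 2 lower than arrays 3 and 4. A further 4 members were saturated in both channels on all 4 arrays, so no change can be read from them. The gene of the Bin receptor was not matched to an identifier here and no value is given for it. Of 22 lipases, 2 rose and 4 fell, among them lipase 3 (CPIJ002715), with 0.91, 0.93, 1.54 and 1.67, and lipase member I (CPIJ004216), with -0.95, -1.01, -0.98 and -0.86.

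Storage proteins had the lowest median of the 47 gene lists, at -2.18, and also the widest spread between arrays. All 11 members had means below 0 and 4 were called down-regulated. Array medians were -2.23, -0.65, -3.21 and -2.67. Larval serum protein 2 (CPIJ009032) measured -1.99, -0.34, -3.83 and -3.02, a larval serum protein 1 beta chain (CPIJ018824) -2.39, -1.35, -3.24 and -2.78, and arylphorin subunit alpha (CPIJ007783) -0.93, -0.65, -1.57 and -1.55. Array 2 was the least lowered for each, and for 4 of the 7 members that missed the threshold array 2 was above 0. The number called rested on single arrays: 2 members were called without array 1, 3 without array 2, and 1 without array 3 or without array 4. Larval serum protein 2 also missed the threshold without array 1 (adjusted p = 0.0503). The calls of larval serum protein 2 and of arylphorin were lost without array 3 (adjusted p = 0.097 and 0.057) and without array 4 (adjusted p = 0.081 and 0.057). The serum protein 1 beta chain lost its call without any one 18 h array (adjusted p = 0.063 to 0.14). Hexamerin 2 beta kept its 18 h call under every alternative run.

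The untreated channel also had other levels of storage proteins at other times. Their summed signal there was 0.0763 to 0.103% at 6 h, 0.247 to 0.453% at 12 h and 0.402 to 0.514% at 18 h. The Bin-treated channel held 0.0318 to 0.462% at 6 h, 0.0917 to 0.706% at 12 h and 0.135 to 0.445% at 18 h. The untreated ranges at 6 h and 18 h did not overlap, and the Bin-treated ranges overlapped at all times. If one untreated pool was labelled for all arrays of a time point, these untreated ranges leave out the spread between pools. An effect of time cannot be told apart from one of the slide or of the pool. Other genes of fat body and haemolymph were less changed, with 2 of 12 down-regulated, the anterior fat body protein above and apolipophorins (CPIJ007204), the lipid carrier of haemolymph, which measured -2.04, -0.06, -2.0 and -1.67. The apolipophorin call was lost without array 1, 3 or 4 (adjusted p = 0.071 to 0.09). Array 2 also stood apart for a monocarboxylate transporter (CPIJ000242), at 0.41 against -2.21, -2.57 and -3.59, and its call was likewise lost without array 1, 3 or 4 (adjusted p = 0.072 to 0.11).

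Enzymes of detoxification, which in insects metabolise plant toxins and insecticides, included many falls. Of 90 cytochromes P450, 23 were down-regulated and 5 up-regulated, with a median of -0.44, but with median centring 12 were lower and 13 higher, so their balance depended on the dye scaling. Cytochrome P450 6A1 (CPIJ005899) measured -2.67, -3.10, -3.21 and -1.94, a 6.62-fold fall (-2.73 ± 0.20, adjusted p = 4.73e-06). P450 82A2 (CPIJ005958), P450 6a22 (CPIJ010858) and P450 4d1 (CPIJ001758) had means of -1.40, -1.33 and -1.29. On these 3, arrays 3 and 4 were lower than arrays 1 and 2. Rises were led by P450 4c21 (CPIJ017243) at 1.14 and P450 52D1 (CPIJ014220) at 1.03.

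The conjugating enzymes and their exporters were also called in both directions. Of 21 glucosyl and glucuronosyl transferases, 1 rose, CPIJ008571 above, and 5 fell. The transferase CPIJ003693 measured -1.13, -2.23, -1.20 and -1.60 and CPIJ000226 -1.68, -1.74, -1.27 and -0.99. Of 27 glutathione transferases, which couple glutathione to electrophiles, 1 rose and 3 fell; glutathione S-transferase 1-1 (CPIJ002683) rose on all arrays (1.78, 1.53, 1.23 and 1.60), and theta-2 (CPIJ002679) fell on all (-1.07, -1.82, -2.58 and -1.75). Of 19 esterases, 4 fell and none rose, with esterase B1 (CPIJ013917), a carboxylesterase known for organophosphate resistance in Culex, at -1.24, -1.11, -1.38 and -1.52 (-1.31 ± 0.10, adjusted p = 6.56e-06). With median centring 3 esterases fell and 2 rose. Of 23 ABC transporters, pumps that export conjugates and lipids, 2 rose and 4 fell, and multidrug resistance protein 2 (CPIJ016887) had a mean of -1.58. Of 18 antioxidant enzymes, superoxide dismutase 2 (CPIJ000146), which removes superoxide, rose (2.35, 1.27, 1.14 and 1.45), and 3 peroxiredoxins, which reduce peroxides, fell, among them CPIJ008450 (-1.53, -1.56, -2.64 and -2.31).

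Genes of nucleolar ribosome assembly were called in one direction at 18 h. Of 41 members, 15 were up-regulated and none down-regulated, and the means of all 41 were above 0 (median 0.39). Array medians were 0.69, 0.52, 0.33 and 0.38. After the p120 antigen, the genes with the largest change were SOF1 (CPIJ017451), of the small-subunit processome in yeast, with 1.74, 1.26, 1.52 and 1.64, brix domain-containing protein 1 (CPIJ014360), of the large-subunit pathway, with 1.44, 1.32, 1.22 and 1.30, and nucleolar GTP-binding protein 2 (CPIJ005364), which takes part in export of the large subunit, with 1.26, 1.16, 1.37 and 1.38. The adjusted p of these was 1.47e-06, 1.1e-06 and 0.000137. Further up-regulated members included the 20S pre-ribosomal RNA maturation factors NOB1 (CPIJ012739) and pno1 (CPIJ019677), with means of 1.13 and 1.17, and pescadillo (CPIJ004969), with 1.05. Over the alternative settings that kept both the adjusted p and the fold threshold, 13 to 22 members were up-regulated and none down-regulated.

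The same genes had other levels at the earlier times. Of all genes, 5.45% were called at 6 h (2.24% up-regulated, 3.20% down-regulated) and 9.39% at 12 h (3.88% and 5.51%). Between 18 h and 6 h, 4.46% differed (2.83% higher and 1.63% lower at 18 h), and between 18 h and 12 h, 3.71% (2.70% and 1.00%). The 2556 described genes, from which the lists were drawn, were called more often. Of them, 241 were up-regulated and 444 down-regulated at 6 h, and 305 and 716 at 12 h. At 18 h, 299 were higher and 194 lower than at 6 h, and 346 and 85 than at 12 h. List counts at or against the earlier times, here and below, are to be read against these figures. At 6 h, 15 of the 41 were down-regulated and none up-regulated (median -0.61), and at 12 h, 14 were up-regulated and 1 down-regulated (median -0.13). At 18 h, 32 members were higher than at 6 h and 10 higher than at 12 h in the test of the difference between time points, and none were lower. Nucleolar protein NHP2 (CPIJ005033), of the H/ACA particles that guide pseudouridine into ribosomal RNA, had 18 h values of 1.05, 0.83, 0.69 and 0.80 against a mean of -1.59 at 6 h (difference 2.43, adjusted p = 3.2e-07).

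Other genes of growth that were low at the earlier times lay near 0 at 18 h. No member of the 22 DNA replication genes was called at 18 h by limma (median -0.09), nor at an unadjusted p under 0.05 with the same fold threshold. By adjusted p alone 2 were higher and 6 lower. At the earlier times 15 were down-regulated at 6 h and 15 at 12 h. In the test of the difference, 13 were higher at 18 h than at 6 h and 15 higher than at 12 h, and 1 was lower than at 12 h. The licensing factors MCM3 (CPIJ012309) and MCM4 (CPIJ010887), parts of the replicative helicase, measured -0.71, -0.02, -0.82 and -0.56 and -0.33, 0.06, -0.76 and -0.59 at 18 h. Their 6 h means were -1.53 and -1.86, and the differences of 0.999 and 1.46 passed the threshold (adjusted p = 0.0031 and 0.00023). The background correction fitted on all spots gave 7 higher than at 6 h and 6 higher than at 12 h.

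The proteasome, the protease complex that degrades ubiquitin-tagged proteins, had 1 of 34 members called at 18 h, proteasome activator complex subunit 3 (CPIJ003165), with 1.22, 1.17, 1.03 and 1.07. At 6 h and 12 h, 19 and 25 members were down-regulated, and 9 and 14 members were higher at 18 h than at those times. Of 27 genes of folding and translocation in the endoplasmic reticulum, 1 rose and 1 fell at 18 h, endoplasmic oxidoreductin-1 (CPIJ004301), which forms disulphide bonds, with -1.0, -0.98, -0.75 and -0.75, while 17 and 22 were down-regulated at 6 h and 12 h. The difference passed the threshold for 9 and 17 of them, always higher at 18 h. Mitochondrial ribosomal proteins followed, with 1 of 46 up-regulated at 18 h, none down-regulated, and 13 and 24 down-regulated at the earlier times; 8 and 20 were higher at 18 h. The 18 h medians of these lists, -0.25, -0.23 and -0.13, were above 0 under median centring (0.107, 0.151 and 0.308).

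**Figure D5:**
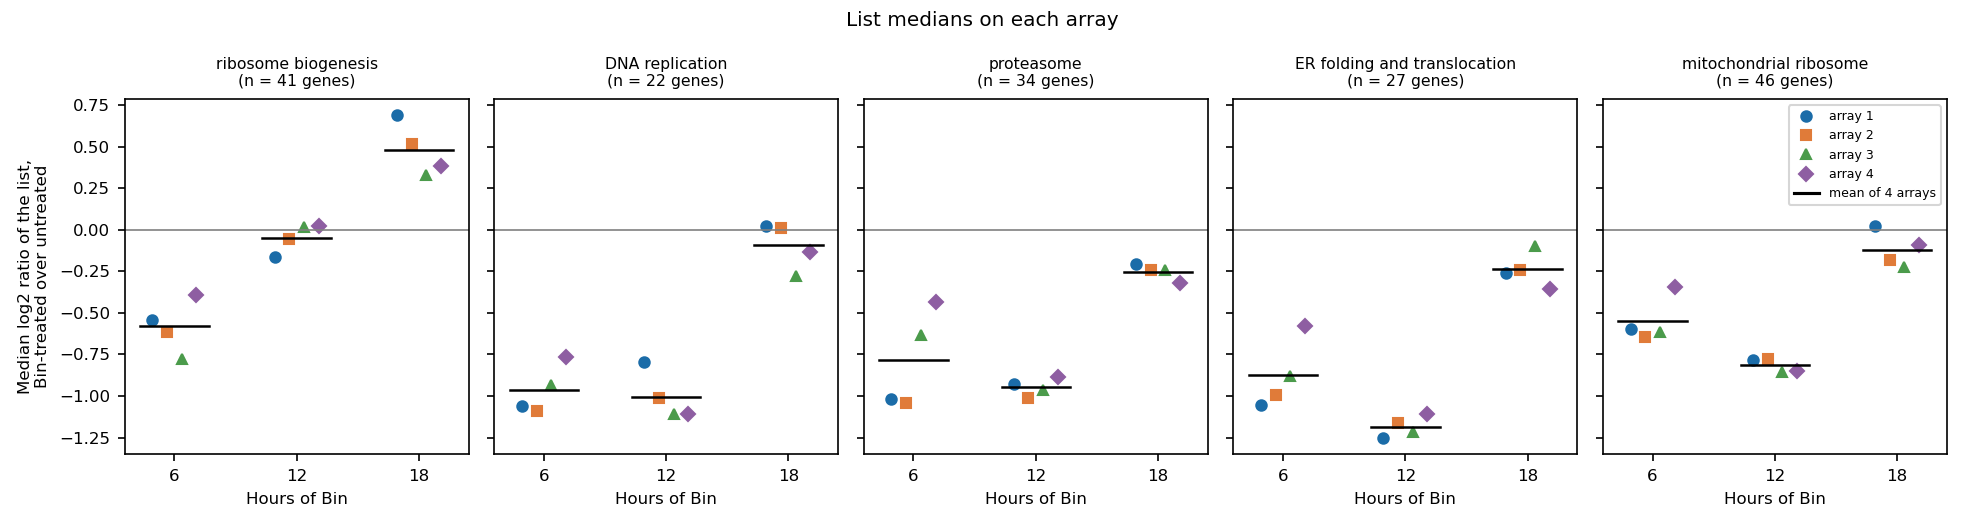
Median log2 ratio of Bin-treated over untreated midgut (vertical axis) of 5 gene lists on each array (points, shape by array number) at 6, 12 and 18 h of Bin (horizontal axis); horizontal bars are means of 4 arrays. Ribosome biogenesis ran from medians of -0.78 to -0.39 at 6 h to 0.33 to 0.69 at 18 h, and on all 5 lists the 18 h arrays lay above the 6 h arrays without overlap.

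Heat shock proteins and co-chaperones, 12 of which were down-regulated at each earlier time, had 1 of 27 called at 18 h, heat shock protein 26, which was up-regulated at all 3 times. Genes that supply translation moved upward in part: of 36 transfer RNA ligases and translation factors, 5 rose and 1 fell. The epsilon subunit of eIF-2B (CPIJ012735), the exchange factor that recharges the initiator complex, measured 1.33, 1.06, 1.25 and 1.26, and histidyl-tRNA synthetase (CPIJ016525) 0.95, 0.80, 1.00 and 1.25. Lysyl-tRNA synthetase (CPIJ017452), at 0.91, 0.61, 1.09 and 1.49, stood above its 6 h mean of -0.47 (difference 1.5, adjusted p = 0.0016).

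Amino acid catabolism was divided. Of 36 members, 7 rose and 6 fell. Among the rises, chosen for description after their values were seen, were 5 genes of successive steps in the breakdown of phenylalanine and tyrosine. Beside the hydroxylase CPIJ002148, phenylalanine hydroxylase (CPIJ002149) measured 0.54, 1.25, 1.29 and 2.08, tyrosine aminotransferase (CPIJ003774) 1.38, 0.44, 1.07 and 1.25, and 4-hydroxyphenylpyruvate dioxygenase (CPIJ004417) 1.62, 0.40, 1.33 and 1.74. Homogentisate 1,2-dioxygenase (CPIJ000377), which opens the aromatic ring, measured 1.37, 0.36, 0.98 and 0.53. Array 2 was the lowest of the 4 for the last 3 genes and array 1 for the first 2, and all values were above 0. At 6 h none of the 5 was called and at 12 h the 2 hydroxylases were. The falls included phosphoserine aminotransferase (CPIJ008287), of serine synthesis, at -2.16, -2.12, -1.87 and -1.69, and ornithine aminotransferase (CPIJ004401) and pyrroline-5-carboxylate dehydrogenase (CPIJ007660), neighbouring enzymes of the ornithine and proline route to glutamate, with means of -1.20 and -1.09.

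Genes of fuel oxidation that passed the threshold were mostly lower. Of 34 genes of fatty acid oxidation and activation, 9 fell and none rose (median -0.49), whereas with median centring 3 fell and 2 rose. Acyl-coenzyme A oxidase 3 (CPIJ001556), the first enzyme of peroxisomal oxidation, measured -1.62, -1.92, -2.07 and -2.44 (-2.01 ± 0.13, adjusted p = 2.16e-06), and a long-chain-fatty-acid CoA ligase (CPIJ011600), which activates fatty acids, -1.70, -1.67, -1.20 and -1.47. The trifunctional enzyme beta subunit (CPIJ018065), of mitochondrial oxidation, had a mean of -1.37. Of 17 carriers and anion channels of mitochondria and peroxisomes, 4 fell. They were the peroxisomal membrane protein pmp34 (CPIJ007010) at -1.22, the mitochondrial tricarboxylate carrier (CPIJ013697) at -1.10 and 2 mitochondrial carnitine/acylcarnitine carriers (CPIJ019834 and CPIJ002253) at -1.0 and -0.86. Over the settings that kept both the adjusted p and the fold threshold, 1 to 4 carriers fell and none rose. The carrier list median ranged from -0.313 to 0.205 over these settings.

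Of 23 genes of glycolysis and gluconeogenesis, 5 fell and 1 rose. Over the settings that kept both the adjusted p and the fold threshold, 3 to 7 fell and 0 to 2 rose. Triosephosphate isomerase (CPIJ002354) measured -1.06, -1.22, -1.37 and -1.57 and phosphoglycerate kinase (CPIJ009280) -1.06, -1.10, -1.15 and -1.01. The gene that rose was a hexokinase (CPIJ017812), the entry enzyme of glycolysis, with a mean of 0.78. All 15 genes of the respiratory chain and its assembly had means below 0 and 3 were called, the mitochondrial ATPase inhibitor (CPIJ000503), with a probe saturated on all arrays, at -1.64, -1.26, -1.14 and -0.98, cytochrome c (CPIJ019024), the electron carrier that also takes part in cell death, at -1.48, -1.58, -1.08 and -0.68, and the electron transfer flavoprotein-ubiquinone oxidoreductase (CPIJ000098) with a mean of -1.07. Cytochrome c was lower at 12 h (mean -2.76) than at 18 h (difference 1.56, adjusted p = 0.006).

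Transporters of the gut were called in both directions. Of 21 sugar transporters, 1 rose and 4 fell, with the sucrose transport proteins CPIJ012069 and CPIJ012068 at means of -1.64 and -1.27 and the sugar transporter CPIJ008946 at 1.40. Of 62 other solute transporters, 6 rose and 6 fell, near the shares of all described genes (7.55% and 9.31%). A list of 18 genes held V-ATPase, Na/K-ATPase and chloride channel genes, which energise the larval midgut and set its pH, and a carbonic anhydrase (CPIJ002014). No member of this list passed the threshold with limma. At an unadjusted p under 0.05 with the same fold threshold 2 were higher, and by adjusted p alone 2 were higher and 6 lower. The member with the largest change, a subunit a of the V-ATPase (CPIJ003274), measured 1.67, 0.52, 0.38 and 1.53 (adjusted p = 0.113).

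Immune genes were called in both directions. Among recognition proteins, which bind microbial surfaces, 3 of 39 rose and 4 fell, near the shares of all described genes (7.55% and 9.31%). Gram-negative bacteria-binding protein 1 (CPIJ004320) measured -1.63, -2.15, -1.52 and -1.72 (-1.76 ± 0.15, adjusted p = 1.32e-05) and protein 2 (CPIJ004229) -1.51, -1.63, -1.25 and -1.30. Both were below -1.2 on every array. In Toll and NF-kappa-B signalling, the pathway that carries the microbial signal to the nucleus, 3 of 11 genes rose and none fell (median 0.51). The transcription factor dorsal (CPIJ002468) measured 0.78, 0.93, 0.84 and 0.91, the kinase IKK beta (CPIJ015672) 0.88, 0.70, 0.82 and 0.82, and the adaptor myd88 (CPIJ018307) 0.81, 0.38, 0.81 and 1.04. The last lies at the threshold, and its mean was 0.74 without array 1 or array 3 and 0.67 without array 4.

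Among effectors, 1 of 7 antimicrobial peptides and lysozymes passed the threshold. Defensin-A (CPIJ001276), a peptide that disrupts bacterial membranes, measured -1.20, -2.02, -2.06 and -1.90 (adjusted p = 0.0185), and its call was lost without array 2, 3 or 4 (adjusted p = 0.06 to 0.067). Gambicin (CPIJ016084), another such peptide, measured 0.51, -0.06, 0.35 and -0.24, against means of -2.25 at 6 h and -1.48 at 12 h, and the difference from 6 h was 2.39 (adjusted p = 0.011). Of 8 serine protease inhibitors, which restrain immune and digestive cascades, 2 rose, with CPIJ016297 at 1.42, 1.00, 0.65 and 1.16.

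A list of 15 transcription factors and related regulators gave 5 rises and no falls. The bHLHZip factor bigmax (CPIJ009807), a partner of the glucose-sensing Mondo protein in Drosophila, measured 0.97, 0.90, 0.87 and 0.88. The 2 genes named sterol regulatory element-binding protein 1 (CPIJ008607 and CPIJ018167), a regulator of lipid synthesis, had means of 0.89 and 0.88, and BTG1 (CPIJ001938), a growth-restraining protein in vertebrates, of 0.85. All arrays were above 0.5 for these 4 genes.

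No caspase or regulator of cell death among 22 genes passed the threshold at 18 h in the limma fit. At an unadjusted p under 0.05 with the same fold threshold 1 was higher, by adjusted p alone 6 were higher and 5 lower, and with median centring 4 were up-regulated. Caspase-3 (CPIJ012579), an executioner protease of apoptosis, measured 2.33, 1.27, 0.16 and 1.96 (1.43 ± 0.52, adjusted p = 0.0589). Array 3 was close to 0 for this gene while the other arrays were well above it. A second caspase-3 (CPIJ009057) measured 1.01, 0.40, 0.40 and 0.68, which passed the adjusted p (0.00761) but lay under 0.75. The genes named caspase-1 ranged in mean from -0.58 (CPIJ008093) to 0.24 (CPIJ016551).

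Genes tied to juvenile hormone, which holds larvae in the larval state, fell where they passed. Of 16 members, 6 were down-regulated and none up-regulated, and 15 had means below 0 (median -0.62). The juvenile hormone-inducible proteins CPIJ007628 and CPIJ010315 measured -1.73, -1.79, -1.81 and -2.0 and -1.52, -1.96, -1.38 and -1.65. Juvenile hormone epoxide hydrolase 1 (CPIJ000992) and juvenile hormone esterase (CPIJ002073), which break the hormone down, had means of -1.66 and -1.08. The values of the hydrolase were -1.76, -1.75, -1.41 and -1.72 and those of the esterase -1.11, -1.28, -0.72 and -1.22. With median centring 3 members were down-regulated.

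Of the called genes, 285 of the up-regulated and 115 of the down-regulated had no description here, either because the study's table, which holds 637 of the 831, does not list them or because it names them hypothetical. The hypothetical protein CPIJ009451 measured 2.41, 2.45, 2.29 and 2.83 with a probe saturated on all 4 arrays, and CPIJ013215 measured 1.95, 1.81, 2.48 and 2.75. The genes CPIJ006617 (-4.13, -3.87, -3.92 and -3.58) and CPIJ014224 (-4.17, -3.29, -3.65 and -3.92) fell 14.7-fold and 13.5-fold. For all 4 of these, every array lay further than 1.8 from 0. The gene CPIJ001746 measured -3.93, -0.71, -4.00 and -2.91, with array 2 apart, and lost its call without array 1, 3 or 4 (adjusted p = 0.1 to 0.14).

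Most genes changed at 18 h had also changed at 12 h. At 12 h, 767 genes were up-regulated (3.88%) and 1088 down-regulated (5.51%), and at 6 h 443 (2.24%) and 633 (3.20%). Of the genes up-regulated at 18 h, 319 were up-regulated at 12 h (66.7% of the 18 h genes and 41.6% of the 12 h genes), and of those down-regulated, 256 (72.5% and 23.5%). The overlap with 6 h was 177 genes up-regulated (37.0% and 40.0%) and 127 down-regulated (36.0% and 20.1%). The dye orientation was the same at all times, so a dye effect of single genes would count toward these overlaps. Up-regulated genes called neither at 6 h nor at 12 h numbered 135, and down-regulated ones 95.

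The direct test between time points showed where 18 h differed, with 558 genes higher (2.83%) and 322 lower (1.63%) than at 6 h, and 534 higher (2.70%) and 198 lower (1.00%) than at 12 h. Of the genes up-regulated at 18 h, 18 were also higher than at both earlier times, and of those down-regulated, 18 were lower than at both. The 18 higher genes, listed here after their values were seen, included NHP2, the H/ACA subunit CPIJ000795, a cell growth-regulating nucleolar protein (CPIJ012225), arginine n-methyltransferase (CPIJ010915), glycine N-methyltransferase (CPIJ015956), a bifunctional aminoacyl-tRNA synthetase (CPIJ016709) and tankyrase (CPIJ017909), with 18 h means of 0.79 to 1.17. The 18 lower genes included proteases, carboxypeptidase A2 and chymotrypsin-1 (CPIJ002126, mean -1.37) among them, meprin A beta-subunit (CPIJ002944, mean -1.12), and the cytochromes P450 4F14 (CPIJ010810, mean -1.27) and 9b2 (CPIJ012470, mean -1.13).

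Several of the largest differences between time points belonged to genes that were not called at 18 h. Synaptic vesicle protein (CPIJ017597) stood at -2.35 and -2.92 at the earlier times and at 0.00, -0.18, -0.17 and 0.11 at 18 h. In the other direction, chymotrypsinogen 2 (CPIJ006544), up at 6 h (3.08) and 12 h (2.46), measured -1.49, -0.81, 0.21 and 0.28 at 18 h. A sodium/solute symporter (CPIJ002361), at 3.06 and 4.13 earlier, measured 0.22, 0.38, 1.38 and 1.57, a 1.85-fold rise that missed the adjusted p (0.0631) and passed it with the replicate number as a block (0.0241), and the tryptophan transporter (CPIJ012065), at 1.26 and 2.44 earlier, measured -0.50, -0.20, -0.41 and -0.99. Prolylcarboxypeptidase (CPIJ008878) remained below its untreated level at 18 h (-1.13, -1.23, -1.10 and -0.98) but was higher than at 6 h by 2.70 (adjusted p = 1.6e-07). Zinc metalloproteinase nas-8 (CPIJ010223), down-regulated at 6 h and 12 h, was well above background on 1 Bin-treated array and on no untreated array at 18 h, so its 18 h level cannot be read.

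Array 4 of 18 h stood apart for several of the genes that differed from 12 h. The metalloproteinase CPIJ010224 measured -0.48, -0.39, -0.33 and 1.99, the lipase CPIJ007033 -0.74, -0.32, -0.88 and 1.25, and venom allergen 3 (CPIJ011834) -0.63, -0.22, -0.45 and 2.04, with array 4 above 0 and the other 3 below it for each gene. Endochitinase A (CPIJ018802) measured -0.56, 3.23, -1.63 and 1.66, so its arrays lay on both sides of 0. The differences of these 4 genes from 12 h were 3.61, 2.93, 2.86 and 2.83. Without the fourth array of 18 h they were 3.02, 2.46, 2.24 and 2.51 and lost the threshold (adjusted p = 0.096 to 0.11). All 4 also lost it without array 1 or 2 of 18 h (adjusted p = 0.053 to 0.1) and without array 1, 3 or 4 of 12 h (adjusted p = 0.062 to 0.11).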

How the data were processed

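Per the file headers and the study's methods, midgut RNA was amplified and labelled with the Low Input Quick Amp kit, hybridised to a custom dual-colour Agilent array and read with Agilent Feature Extraction 11.5.1.1. The deposited scanner files hold the spots' median intensities and local background intensities, which the authors had not yet normalized, and the scanner's log10 ratio of Cy5 over Cy3. The deposited series table holds the authors' log2 ratios, which were rebuilt here to within 4.98e-08 by normexp background correction with offset 16 on all spots and loess within each array. Gene names are those of the study's annotation; no probe sequence or genome position was used here.

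The median intensities were corrected for background with normexp (offset 50) and normalized by loess within each array, with control spots at weight 0, in limma 3.58.1 (R 4.3.3). Spots with uneven background (29 to 153 an array) were left out before normexp and outlier spots after it, because normexp fitted on all spots lowered the SD of the ratios of the third array of 18 h from 0.377 to 0.232. The 43803 gene spots were averaged to 19751 genes. All 12 arrays were fitted with a mean for each time point (9 residual degrees of freedom) by lmFit and eBayes, with Benjamini-Hochberg adjustment over all genes. Within a group the arrays are labelled as biological replicates. With 4 arrays a group, precision is limited by their number. The steps were tested on simulated data, and figures were drawn with matplotlib 3.10.9.

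The background setting, the 47 gene lists and the genes described were chosen with earlier results of these data known. Named genes were the 15 largest rises and 15 largest falls among described genes measured in both channels, the 5 largest each way among other genes, the genes with only a bound, up to 4 called members a list (or 2 where none was called), and the 5 largest differences each way between 18 h and each earlier time. Other list members, named for their role, were chosen after their values were seen and were not rerun under the alternatives. The alternatives were other background corrections, normalizations, filters and thresholds, the scanner's and the deposited ratios, a separate fit, a replicate block, and each array left out.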

Additional observations from a re-analysis of the deposited data

Results flagged for a closer look

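A single array lay apart from the other 3 of 18 h, by its gap as a share of the whole range, for 8 of 172 named genes (4.65%). The cutoff is one that about 1 in 20 sets of 4 independent, normally distributed values would pass. The named genes were chosen by their values and are not independent, so that rate is no test of an array effect. Array 4 was the one apart for 5 of them, array 3 for 2 and array 2 for 1. The log2 ratio on array 4 was -3.53 for cytochrome b5 (CPIJ000318), 2.37 for CPIJ007760, 1.04 for zinc metalloproteinase nas-8 (CPIJ010223), 1.99 for metalloproteinase (CPIJ010224) and 2.04 for venom allergen 3 (CPIJ011834). The log2 ratio on array 3 was -1.41 for juvenile hormone epoxide hydrolase 1 (CPIJ000992) and 0.322 for apolipoprotein D (CPIJ017615). The log2 ratio on array 2 was -1.17 for zinc carboxypeptidase (CPIJ009394). At 18 h the nas-8 gene was well above background on 1 Bin-treated array and on no untreated array, so its ratios there carry no readable level.

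The ratio of Bin-treated over untreated midgut differed between 18 h and 6 h for 65 of the named genes in limma's test of that difference, at adjusted p under 0.05 and at least 0.75 on the log2 scale. Values are log2 differences, 18 h minus 6 h. Among genes higher at 18 h, the largest differences were those of endocuticle structural glycoprotein SgAbd-4 (CPIJ009326) at 2.98, zinc metalloproteinase nas-8 (CPIJ010223) at 2.83, prolylcarboxypeptidase (CPIJ008878) at 2.7, nucleolar protein NHP2 (CPIJ005033) at 2.43, gambicin (CPIJ016084) at 2.39 and synaptic vesicle protein (CPIJ017597) at 2.3. They were followed by phenylalanine-4-hydroxylase (CPIJ002148) at 2.14, lysyl-tRNA synthetase (CPIJ017452) at 1.5, DNA replication licensing factor MCM4 (CPIJ010887) at 1.46, CPIJ004836 at 1.45, CPIJ002679, glutathione S-transferase theta-2, at 1.44 and proliferating-cell nucleolar antigen p120 (CPIJ010674) at 1.39. Smaller values were those of nucleolar GTP-binding protein 2 (CPIJ005364) at 1.32, phenylalanine hydroxylase (CPIJ002149) at 1.26, DNA replication licensing factor MCM3 (CPIJ012309) at 0.999, sodium/Chloride dependent amino acid transporter (CPIJ003267) at 0.949, proteasome activator complex subunit 3 (CPIJ003165) at 0.933 and brix domain-containing protein 1 (CPIJ014360) at 0.928. Then came SOF1 (CPIJ017451) at 0.864, translation initiation factor eIF-2B subunit epsilon (CPIJ012735) at 0.852 and CDC42_ANOGA CDC42 homolog (CPIJ014902) at 0.8. Among genes lower at 18 h, the largest differences were those of hexamerin 2 beta (CPIJ009506) at -4.82, chymotrypsinogen 2 (CPIJ006544) at -3.53, phosphatidylcholine-sterol acyltransferase (CPIJ010979) at -2.88, regucalcin (CPIJ007230) at -2.33, CPIJ010934 at -2.23 and sodium/solute symporter (CPIJ002361) at -2.18. They were followed by chymotrypsinogen (CPIJ002138) at -2.08, cathepsin B-like thiol protease (CPIJ001240) at -2.05, cathepsin B (CPIJ001239) at -1.93, alkaline phosphatase (CPIJ015241) at -1.85, sodium/Chloride dependent amino acid transporter (CPIJ012066) at -1.83 and tryptophan transporter (CPIJ012065) at -1.78. Smaller values were those of carboxypeptidase B (CPIJ010801) at -1.76, phosphoserine aminotransferase (CPIJ008287) at -1.66, CPIJ009451 at -1.62, carboxypeptidase A2 (CPIJ001743) at -1.6, CPIJ001035 at -1.56 and zinc carboxypeptidase (CPIJ009394) at -1.56. Then came arylphorin subunit alpha (CPIJ007783) at -1.54, anterior fat body protein (CPIJ007528) at -1.5, alpha-glucosidase (CPIJ008904) at -1.48, gram-negative bacteria-binding protein 1 (CPIJ004320) at -1.46, cytochrome P450 6a22 (CPIJ010858) at -1.44 and peroxiredoxin-6 (CPIJ008450) at -1.3. Next were cathepsin B (CPIJ000577) at -1.29, glucosyl/glucuronosyl transferase (CPIJ003693) at -1.29, CPIJ014224 at -1.25, zinc carboxypeptidase (CPIJ001744) at -1.25, juvenile hormone epoxide hydrolase 1 (CPIJ000992) at -1.24 and cytochrome P450 6A1 (CPIJ005899) at -1.23. After these were CPIJ013215 at -1.23, canalicular multispecific organic anion transporter 1 (CPIJ008284) at -1.12, CPIJ006617 at -1.1, para-nitrobenzyl esterase (CPIJ007825) at -1.1, lipase member I (CPIJ004216) at -1.06 and cytochrome P450 82A2 (CPIJ005958) at -1.03. Smaller again were mitochondrial ATPase inhibitor (CPIJ000503) at -1.03, sugar transporter (CPIJ008941) at -1, juvenile hormone esterase (CPIJ002073) at -0.981, gram negative bacteria binding protein 2 (CPIJ004229) at -0.972, lipase (CPIJ004230) at -0.908 and trifunctional enzyme beta subunit (CPIJ018065) at -0.87. Last were lysosomal trafficking regulator (CPIJ005368) at -0.769 and carboxylesterase (CPIJ018231) at -0.76. The hexamerin difference lost the threshold without array 3 or 4 of 18 h (adjusted p = 0.057 and 0.054) or array 1, 2 or 3 of 6 h (adjusted p = 0.051 to 0.069). Of the values above, that of nas-8 rests on the unreadable 18 h level, and cathepsin B (CPIJ000577), not well above background in any Bin-treated sample at 18 h, has only a bound there, so neither value is a measured size.

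The ratio of Bin-treated over untreated midgut differed between 18 h and 12 h for 35 of the named genes in limma's test of that difference, at adjusted p under 0.05 and at least 0.75 on the log2 scale. Values are log2 differences, 18 h minus 12 h. Among genes higher at 18 h, the largest differences were those of metalloproteinase (CPIJ010224) at 3.61, lipase (CPIJ007033) at 2.93, synaptic vesicle protein (CPIJ017597) at 2.86, venom allergen 3 (CPIJ011834) at 2.86, endochitinase A (CPIJ018802) at 2.83 and zinc metalloproteinase nas-8 (CPIJ010223) at 2.75. They were followed by endocuticle structural glycoprotein SgAbd-4 (CPIJ009326) at 2.57, prolylcarboxypeptidase (CPIJ008878) at 2.01, cytochrome c (CPIJ019024) at 1.56, mitochondrial import inner membrane translocase subunit Tim10 (CPIJ010382) at 1.29, DNA replication licensing factor MCM4 (CPIJ010887) at 1.18 and mitochondrial inner membrane protein translocase, 13kD-subunit (CPIJ018211) at 1.08. Smaller values were those of succinyl-CoA ligase subunit alpha (CPIJ018673) at 0.995, glutathione-s-transferase theta, gst (CPIJ018629) at 0.897, nucleolar protein NHP2 (CPIJ005033) at 0.893, endoplasmic oxidoreductin-1 (CPIJ004301) at 0.851, phosphoglycerate mutase 2 (CPIJ014577) at 0.819 and malic enzyme (CPIJ012341) at 0.771. Then came Juvenile hormone-inducible protein (CPIJ007628) at 0.752. Among genes lower at 18 h, the largest differences were those of lethal (CPIJ005644) at -4.1, sodium/solute symporter (CPIJ002361) at -3.24, tryptophan transporter (CPIJ012065) at -2.96, chymotrypsinogen 2 (CPIJ006544) at -2.91, sodium/Chloride dependent amino acid transporter (CPIJ012066) at -2.48 and fibrinogen and fibronectin (CPIJ012830) at -2.29. They were followed by CPIJ009451 at -1.84, lipase 3 (CPIJ002715) at -1.71, phosphatidylcholine-sterol acyltransferase (CPIJ010979) at -1.12, serine-pyruvate aminotransferase (CPIJ002835) at -1.06, SERAC1 (CPIJ003381) at -1.05 and carboxypeptidase A2 (CPIJ001743) at -0.93. Smaller values were those of salivary secreted angiopoietin (CPIJ017657) at -0.92, mitochondrial ATPase inhibitor (CPIJ000503) at -0.847, cathepsin B (CPIJ000577) at -0.774 and cytochrome b5 (CPIJ000318) at -0.771. Here too the values of nas-8 (CPIJ010223) and cathepsin B (CPIJ000577) are not measured sizes.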

How the results depend on the processing

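With median centring in place of loess, 1551 genes were higher and 171 lower at 18 h (9.93% lower) and 1522 differed between 18 h and 12 h. With the scanner's log ratio these were 951, 912 and 1143. Without the fold threshold, 3130 were higher and 2660 lower, 3878 differed from 6 h and 3802 from 12 h. Normexp on all spots gave 556 (offset 50) and 585 (offset 16) differences from 6 h, the deposited ratios 579, and normexp with offset 50 on all spots 462 differences from 12 h; the cause of these shifts was not tested. Leaving out single arrays gave 417 to 536 genes higher and 335 to 459 lower (38.46 to 50.44% lower), 780 to 967 differences from 6 h and 592 to 842 from 12 h. Leaving out the third arrays of 18 h and 12 h together, an alternative chosen after seeing the data, gave 526 and 336.

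Over the named genes' values, 5245 kept direction and call, 252 lost the threshold, 59 passed it newly and 12 reversed. The reversals fell on 5 genes that were not called at 18 h: CPIJ010223 with median centring (-0.08612) and over single arrays left out (-0.06333 to 0.3224), CPIJ010224 with plain background subtraction (-0.0794), the scanner ratio (-0.3855) and single arrays left out (-0.3975 to 0.4256), CPIJ007033 with normexp on all spots (0.0423), the third arrays left out (0.06691) and single arrays left out (-0.6446 to 0.06691), CPIJ011834 with the scanner ratio (-0.03993) and single arrays left out (-0.4331 to 0.4593), and CPIJ018802 with single arrays left out (-0.1783 to 1.444).

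The replicate numbers of the labels are not shown to pair the arrays. Deviations of same-numbered arrays correlated with r of -0.11 to 0.39 over 12 pairs, 8 of them above 0.1, and 3 of 12 arrays correlated best with their own number. With the number as a replicate block, 493 genes were higher and 370 lower at 18 h, 932 differed from 6 h and 748 from 12 h. For named genes the block ended the calls of the 4 differences from 12 h of CPIJ010224, CPIJ007033, CPIJ011834 and CPIJ018802 (adjusted p = 0.056 to 0.075), made calls of CPIJ014269 and CPIJ002361 at 18 h, and changed no other. No ratio can be read for genes saturated in both channels or not well above background in either (1924 genes on any array of 18 h).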
